A study of Mus musculus with 6 samples.

Results

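Complement is a cascade of plasma and membrane proteins that marks microbes and debris for uptake and can pierce membranes. It is started by C1q bound to antibody or dead cells (classical pathway), by mannose-binding lectin or ficolins (lectin pathway) or by spontaneous turnover of C3 (alternative pathway), and all routes meet at C3. Most plasma complement comes from the liver, but macrophages are a main source of C1q and are among the cells that make properdin. Stromal cells make C1r, C1s and C1 inhibitor. The genes described here are 33 complement components, receptors and regulators, chosen by symbol, of 39017 gene identifiers in the deposited count table.

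RNA was sequenced from cultured adherent marrow cells of wild-type (WT) BALB/c mice, labelled F4/80+CD169+ macrophages. There were 3 libraries from Old mice (more than 78 weeks of age) and 3 from Young mice (3 weeks of age). The cells of both ages were released by crushing femora, tibiae and humeri and expanded in alpha-MEM with fetal bovine serum after non-adherent cells were washed off, and each library came from 10000 cells. By its title, the series concerns the effect of marrow age on progression of a B-cell leukemia, and the 2 ages of marrow culture are set against each other here. Whether libraries of 1 age came from separate animals is not stated in the labels, so the p-values reflect only spread among libraries, which may be technical.

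Library totals lay between 34391206 and 43367734 counts, and 15567 genes had enough of them for the test. Levels are CPM, counts divided by the scaled library size, and TPM, which also divides by exon length, is used where levels of different genes are compared. Positive log2 fold changes mean higher in Old, and a gene rose or fell where its adjusted p in edgeR was under 0.05. The defining markers Adgre1 (F4/80) and Siglec1 (CD169) were present in every library, with Adgre1 at 197 to 245 CPM in Old and 385 to 530.2 CPM in Young libraries. Of 15 macrophage markers 13 fell and 0 rose, with a median log2 fold change of -0.91. Their summed level, mostly Lyz2, was 4792 to 5157 CPM in Old and 8273 to 10228 CPM in Young libraries. Marco, among those that fell, had 2, 12 and 26 counts in Old libraries and had enough counts for the test only through its Young libraries. Of 12 stromal markers 2 rose and 3 fell (median -0.62), and their sum, mostly collagen, was 23589 to 29714 CPM in Old and 30976 to 68940 CPM in Young libraries, the highest value being that of Young replicate 3. In such bulk RNA, fewer cells of a type and less RNA per cell cannot be told apart.

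Of the 33 complement genes, 24 passed the filter on low counts. Of these, 7 fell (C1qa, C1qb, C1qc, C3, Cfb, Cfp and Cd93), 3 rose (Masp1, C1rl and Vsig4) and 14 did not pass the test. Among all tested genes 10.5% were called, 4.7% as lower and 5.84% as higher. Old and Young CPM were fully separated in 11 of the 24 genes, against 30.2% of all tested genes. The median log2 fold change was -0.04 over the 24 genes and -0.01 over all tested genes. Vsig4 passed the filter only through its Old libraries, so its presence among the 24 already required a difference. Without Vsig4, 2 of 23 genes rose, 7 fell and 10 were fully separated. The number of complement genes that fell was 4 without Old replicate 1, 3 without Old replicate 2, and 4 without Young replicate 1 or Young replicate 2.

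**Figure D1:**
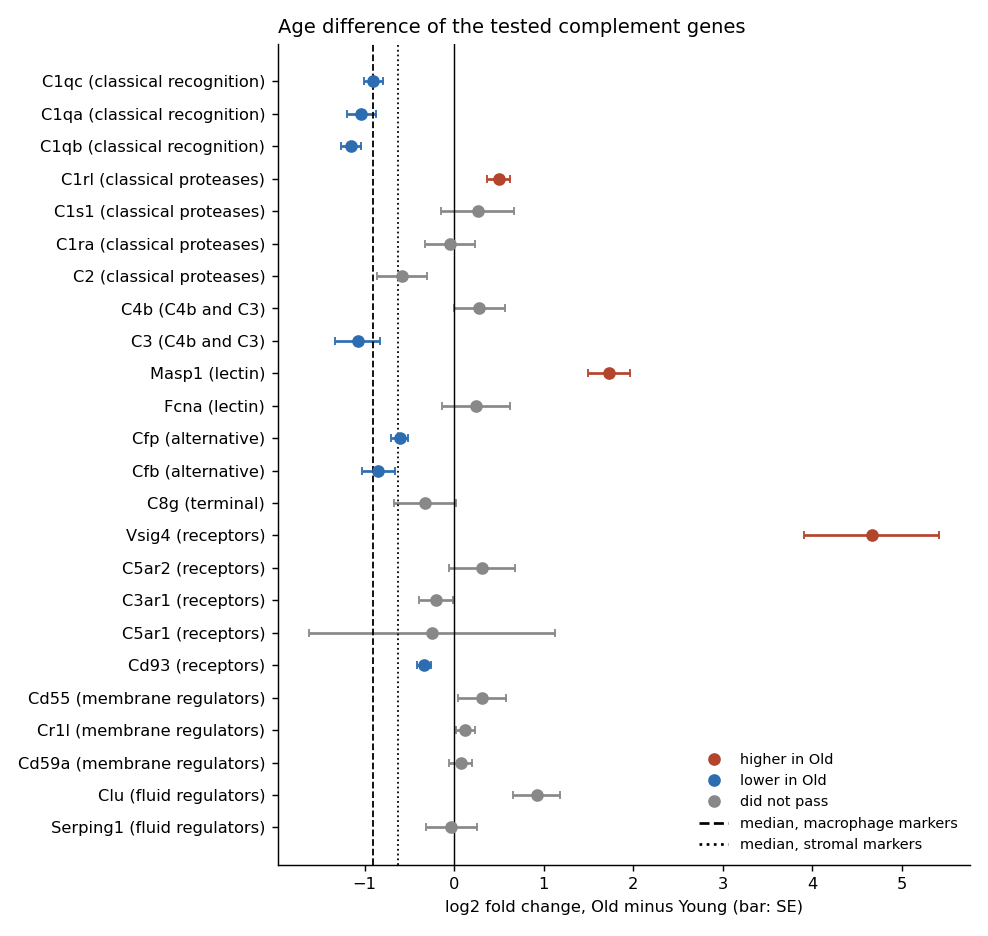
Log2 fold change (Old minus Young) of the 24 tested complement genes, with SE bars, grouped by role. The 3 C1q chains, C3 and Cfb lie near the dashed line, the median of the macrophage markers (-0.91). The dotted line is the median of the stromal markers (-0.62). Vsig4 and Masp1 lie furthest to the right.

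The 3 chains of C1q, the recognition molecule of the classical pathway, were among the 5 most abundant complement transcripts per length and were all lower in Old cultures. C1qa had 183, 166 and 144 CPM in Old and 389, 358 and 264 CPM in Young libraries. C1qb had 121, 111 and 105 CPM in Old and 282, 246 and 220.1 CPM in Young libraries. C1qc had 264, 239 and 222 CPM in Old and 499.7, 455 and 401 CPM in Young libraries. For each chain the lowest Young library lay above the highest Old library, and the lowest library of each age was replicate 3. The log2 fold changes were -1.04 (SE 0.16, adjusted p = 0.00866) for C1qa, -1.15 (SE 0.11, adjusted p = 0.00142) for C1qb and -0.90 (SE 0.11, adjusted p = 0.00329) for C1qc, and each call held without any single library (highest adjusted p 0.0462, 0.0128 and 0.0255). The chains together gave 470.5 to 568 CPM in Old and 885 to 1171 CPM in Young libraries. Per length, C1qa stood at 448 ± 54.7 TPM, C1qc at 355 ± 32.4 TPM and C1qb at 292 ± 21.9 TPM in Old libraries, against 927 ± 164, 669.8 ± 61.9 and 656 ± 71.3 TPM in Young libraries (SD, n = 3 each). In Old libraries C1qa and C1qc ranked 1 and 2 by TPM among the 33 genes and C1qb ranked 5, below C3ar1 and Cfp.

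The C1q genes are protein-coding neighbours on the minus strand of chromosome 4, within 18675 bases at chr4:136880129-136893065 for C1qb and C1qc and up to position 136898803 for C1qa (mm10). Because the neighbours fell together, the 250 bases before the RefSeq start of C1qb (chr4:136886201-136886450, minus strand) and C1qc (chr4:136892915-136893164, minus strand, both GRCm38.p6) are shown 5′ to 3′, with a match to the PU.1 motif GAGGAAG, on either strand, in capitals.
C1qb: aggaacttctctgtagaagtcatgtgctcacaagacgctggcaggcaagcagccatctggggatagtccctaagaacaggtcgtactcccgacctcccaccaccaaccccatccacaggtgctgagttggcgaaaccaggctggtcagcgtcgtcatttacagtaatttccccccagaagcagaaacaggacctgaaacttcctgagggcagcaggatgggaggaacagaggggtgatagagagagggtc
C1qc: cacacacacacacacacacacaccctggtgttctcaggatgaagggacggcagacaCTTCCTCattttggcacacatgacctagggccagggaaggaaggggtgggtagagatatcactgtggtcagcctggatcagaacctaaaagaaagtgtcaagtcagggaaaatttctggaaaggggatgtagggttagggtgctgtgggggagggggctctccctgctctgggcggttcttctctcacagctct

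The C1qc window held 1 match, 194 to 188 bases before the RefSeq start, and the C1qb window held none. The GENCODE gene of C1qc reaches position 136893065, which is inside this window. The bases nearest the RefSeq start thus lie within that gene, and the match lies upstream of it. PU.1, encoded by Spi1, is a myeloid transcription factor. Of the 33 genes 24 had a window in the RefSeq table, and GAGGAAG was in 2 of these 24 (8.33%) and in 10.6% of all 32851 windows of that length. Further motifs were searched on both strands in the same windows. The interferon response motif GAAANNGAA was in 2, those of C5ar1 and Cd59a (7.13% of all windows), and the interferon-gamma activated site TTCNNNGAA in 2, those of C7 and Masp2 (7.02% of all). The C/EBP motif TTGCNNAA was in 5 (9.56% of all), those of C1rl, C1s1, C3, C5ar2 and C9, and the MAF element TGCTGAC in 3 (3.81% of all), those of C1rl, Cd55 and Fcna. None of these 4 further motifs was in the C1qb or C1qc window. A match describes the letters only.

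Within a library, the ratio of each C1q chain to Adgre1 overlapped between the ages, but the outcome differed with the macrophage marker chosen. The ratio of C1qa to Adgre1 CPM was 0.726 ± 0.0226 in Old and 0.710 ± 0.0237 in Young libraries, that of C1qb 0.498 ± 0.0309 in Old and 0.530 ± 0.0422 in Young libraries, and that of C1qc 1.07 ± 0.0562 in Old and 0.962 ± 0.0715 in Young libraries (SD, n = 3 each). The exact two-sided permutation p was 0.5, 0.4 and 0.2, which does not show that the ratios are equal. Against all 15 macrophage markers, the C1qa ratio overlapped for 8, was higher in every Old library for 3 and lower in every Old library for 4. The C1qb ratio overlapped for 6, was higher for 2 and lower for 7, and the C1qc ratio overlapped for 8, was higher for 3 and lower for 4. For each chain, the markers with a higher ratio include Marco, which had 2, 12 and 26 counts in Old libraries. Because Marco was admitted through its Young libraries, that outcome was set in advance. Relative to Cd68, a lysosomal macrophage marker that did not pass the age test, C1qa was 0.329 to 0.371 in Old and 0.464 to 0.752 in Young libraries. Relative to Siglec1, C1qa was 3.78 to 3.80 in Old and 1.91 to 2.99 in Young libraries, the opposite order. The ratio of C1qb to C1qc was 0.458, 0.464 and 0.473 in Old and 0.565, 0.540 and 0.549 in Young libraries, which did not overlap (exact permutation p = 0.1, the smallest that 3 against 3 libraries allow). C1qa to C1qb and C1qa to C1qc overlapped between ages (exact permutation p = 0.3 each). These 8 ratios, counting those of Cfp and C3ar1 to Adgre1 below, and the counts over 15 markers were chosen after the levels were seen, and adjusted over the 8 the smallest permutation p was 0.267.

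**Figure D2:**
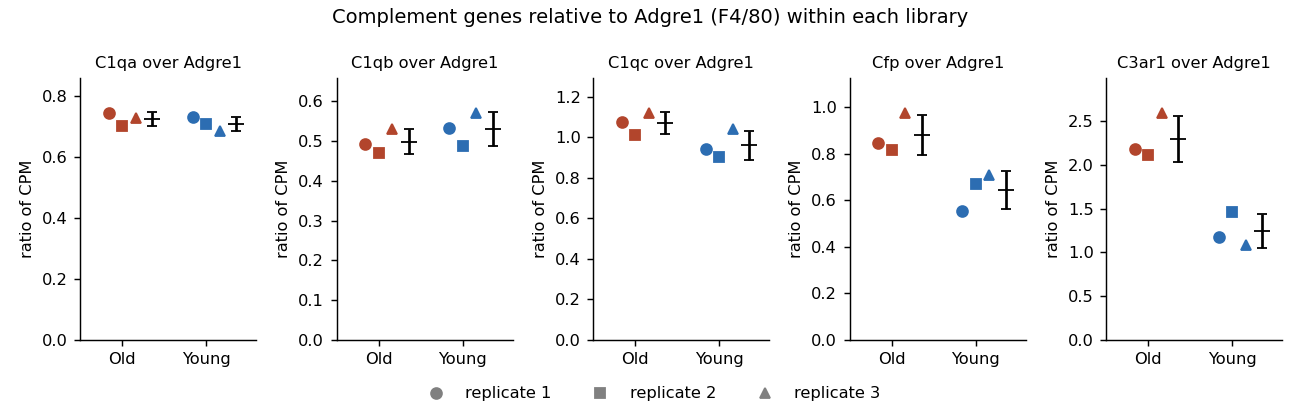
Ratio of CPM to that of Adgre1 in each library, with the mean and SD of 3 libraries beside the points. Old and Young values overlap for the 3 C1q chains and do not overlap for Cfp and C3ar1. Adgre1 is 1 of 15 macrophage markers, and other markers gave other outcomes.

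The ratios of Cfp and C3ar1 to Adgre1 were higher in every Old library, which did not hold for every macrophage marker. Properdin, encoded by Cfp, stabilizes the alternative pathway convertase. Cfp had 208, 193 and 193 CPM in Old and 294, 338 and 273 CPM in Young libraries, with no overlap (log2 fold change -0.61, SE 0.10, adjusted p = 0.00956). Leaving out Old replicate 2 ended the Cfp call (adjusted p = 0.0549). C3ar1, the G protein-coupled receptor for the C3a fragment, had 534, 500.3 and 513 CPM in Old and 626, 738 and 419 CPM in Young libraries. Its Old values all lay inside the Young range, and its log2 fold change of -0.20 (SE 0.19, adjusted p = 0.594) did not pass. Without Young replicate 3, its lowest library, C3ar1 was called lower (log2 fold change -0.40, adjusted p = 0.0188). Relative to Adgre1, Cfp stood at 0.881 ± 0.0850 in Old and 0.645 ± 0.0808 in Young libraries, and C3ar1 at 2.30 ± 0.261 in Old and 1.24 ± 0.196 in Young libraries (SD, n = 3 each). Neither ratio overlapped between ages (exact permutation p = 0.1 each). Over the 15 macrophage markers, the Cfp ratio was higher in every Old library for 8, lower for 3 and overlapped for 4, and the C3ar1 ratio was higher for 11 and overlapped for 4. For both genes the markers with a higher ratio again include Marco, whose outcome was set in advance. Relative to Cd68, Cfp was 0.417 to 0.442 in Old and 0.479 to 0.573 in Young libraries, and C3ar1 was 1.08 to 1.175 in Old and 0.735 to 1.25 in Young libraries. By TPM, C3ar1 stood at 339.6 ± 12.1 in Old and 395 ± 104 in Young libraries and Cfp at 323 ± 14.5 in Old and 498 ± 52.0 in Young libraries.

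C3 and factor B, which form the alternative pathway convertase, fell as well, although each call was lost when single libraries were left out. C3, the component on which all pathways converge, had 10.4, 10.4 and 19.3 CPM in Old and 25.5, 29.6 and 29.5 CPM in Young libraries. No Old library reached the Young range, and Old replicate 3 was nearest to it. The log2 fold change was -1.08 (SE 0.25, adjusted p = 0.0384), and leaving out any library but Old replicate 3 ended the call (adjusted p 0.0678 to 0.134). Cfb had 39.7, 37.2 and 54.1 CPM in Old and 85.1, 87.2 and 63.1 CPM in Young libraries, where replicate 3 of each age was closest to the other age. Its log2 fold change was -0.85 (SE 0.18, adjusted p = 0.0296), lost without Old replicate 1 or 2 or Young replicate 1 or 2 (adjusted p 0.0858 to 0.121) and with a replicate block (adjusted p = 0.0746). Cfb shares 79.5% of its exon length with the gene model Gm20547, and C2 46.9%, so reads of these neighbours could be split or lost in counting. Factor D, encoded by Cfd, is the protease that cuts factor B and is the adipocyte product adipsin. It had 9 counts in Old replicate 1 and 0 counts in the other 5 libraries. Of 7 adipocyte markers, Fabp4, Lpl and Pparg rose and Adipoq and Plin1 did not pass the test. Cidec had at most 4 counts in a library, and Lep had 0 counts in all libraries.

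**Figure D3:**
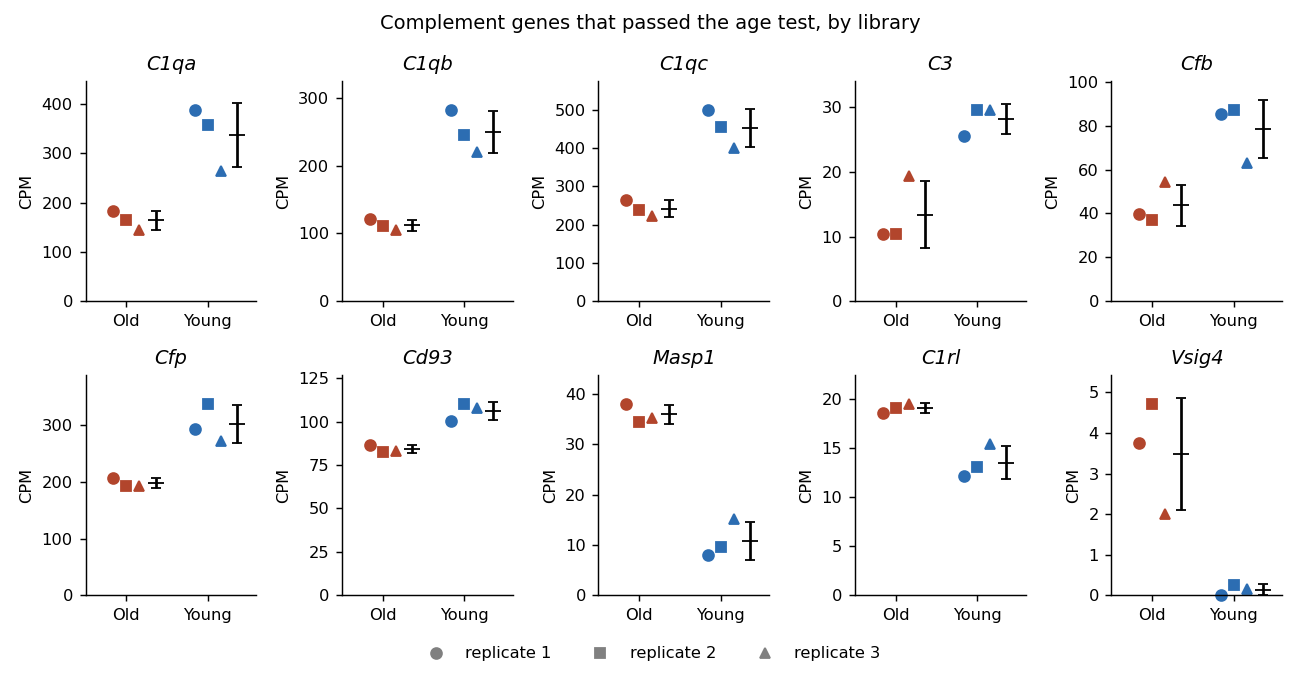
CPM in each library of the 10 complement genes that passed the age test, with the mean and SD of 3 libraries beside the points and marker shape giving the replicate number. The ages do not overlap in any panel. Vsig4 stays under 0.3 CPM in Young libraries.

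Masp1 showed the opposite direction. It encodes MASP-1 and, by splicing, MASP-3, proteases of the lectin and alternative pathways, which counts per gene do not tell apart. Masp1 had 38.2, 34.5 and 35.4 CPM in Old and 7.91, 9.51 and 15.1 CPM in Young libraries. Every Old library was well above the highest Young one, which was replicate 3. The gene was 3.32-fold higher in Old libraries (log2 fold change 1.73, SE 0.23, adjusted p = 0.00502), and the call held without any single library (highest adjusted p 0.0284). The other lectin pathway genes among the 33, Masp2 and Fcna, gave no call. Masp2, the protease that cuts C4 and C2, had 7, 10 and 8 counts in Old and 15, 27 and 4 counts in Young libraries, too few for the test, and shares 54.9% of its exon length with Tardbp. Fcna, ficolin A, had 3.01, 3.25 and 1.83 CPM in Old and 1.23, 2.49 and 3.12 CPM in Young libraries, with overlapping ranges (log2 fold change 0.24, SE 0.38, adjusted p = 0.773).

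Vsig4, encoding CRIg, the receptor by which tissue macrophages take up particles coated with C3b and iC3b, was detected mainly in Old libraries. It had 164, 182 and 72 counts in Old and 0, 9 and 5 counts in Young libraries. These are 3.74, 4.73 and 2.00 CPM in Old and 0, 0.255 and 0.149 CPM in Young libraries, so it rose to a low level against a level near the limit of detection. Its fitted log2 fold change was 4.66 (5.51 without Young replicate 2). It is given as a description, since the filter admitted the gene through its Old libraries alone. The pooled counts of 418 in Old and 14 in Young libraries give, relative to library size, a 26.6-fold ratio (95% Clopper-Pearson interval, exact, 15.7 to 49.1), which covers counting error only.

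C1rl, a protease gene beside C1ra whose product resembles C1r, had 18.6, 19.1 and 19.5 CPM in Old and 12.1, 13.0 and 15.3 CPM in Young libraries. The ages did not overlap, and the log2 fold change of 0.50 (SE 0.12, adjusted p = 0.0481) passed only narrowly. Of the fits that leave out 1 library, only that without Young replicate 3 kept the call (adjusted p otherwise 0.128 to 0.155), and it was also lost with no low-count filter (adjusted p = 0.0590) and with a replicate block (adjusted p = 0.0696). Cd93, a lectin-like glycoprotein once named the C1q receptor and made by endothelium and myeloid cells, had 86.7, 82.4 and 82.9 CPM in Old and 100.2, 110.3 and 108 CPM in Young libraries. Its fall was the smallest of those called, a log2 fold change of -0.34 (SE 0.07, adjusted p = 0.0325), and leaving out any library but Young replicate 3 ended the call (adjusted p 0.0516 to 0.137). With a replicate block the Cd93 call was lost (adjusted p = 0.0767).

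The proteases C1r and C1s, which sit on C1q, and their inhibitor did not pass the test and varied between libraries of 1 age. C1ra had 24.6, 20.6 and 30.7 CPM in Old and 20.4, 20.0 and 38.0 CPM in Young libraries. Serping1, encoding C1 inhibitor, had 150.1, 137 and 238 CPM in Old and 136, 151 and 250.1 CPM in Young libraries. In each age the highest library was replicate 3, by a wide margin in Serping1, and the ages overlapped. The log2 fold changes were -0.05 (SE 0.28, adjusted p = 0.95) for C1ra and -0.03 (SE 0.29, adjusted p = 0.966) for Serping1. C1s1 had 9.33, 5.66 and 12.9 CPM in Old and 4.68, 6.48 and 12.1 CPM in Young libraries (adjusted p = 0.772), and shares 18.4% of its exon length with Gm16567. C2, which joins C4 in the classical convertase, had 13.0, 10.6 and 19.8 CPM in Old and 16.6, 19.9 and 28.4 CPM in Young libraries (adjusted p = 0.272). C4b, a C4 gene, had 10.1, 9.63 and 13.3 CPM in Old and 7.91, 6.20 and 13.1 CPM in Young libraries (adjusted p = 0.629). Of their 50-base windows C1ra shares 48.0% with C1rb, C4b 34.6% with C4a and C1s1 21.8% with C1s2, so these counts may be split between near copies.

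These 5 genes and C1rl were highest in replicate 3 of both ages, a pattern counted after the values were seen. It held for 6 of the 24 tested complement genes (25.0%), 17.9% of all tested genes, 10 of 12 stromal markers and 1 of 15 macrophage markers. Col1a1, the main fibroblast and osteoblast collagen, had 10920, 11565 and 13803 CPM in Old and 19086, 16937 and 36658 CPM in Young libraries. Adgre1 was lowest in replicate 3 of each age, but the summed macrophage markers were not: they were highest in Young replicate 3, at 10228 CPM. That sum is mostly Lyz2, which had 7164 CPM in Young replicate 3. Single macrophage markers differed. In Young replicate 3, Siglec1, Csf1r, Mrc1, Lyz2 and Itgam were highest of the Young libraries. Adgre1, Fcgr1, Cd14, Marco, Tyrobp, Fcer1g and Aif1 were lowest there, and the remaining markers lay between. The part of stromal content in the levels of the complement genes was not tested.

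**Figure D4:**
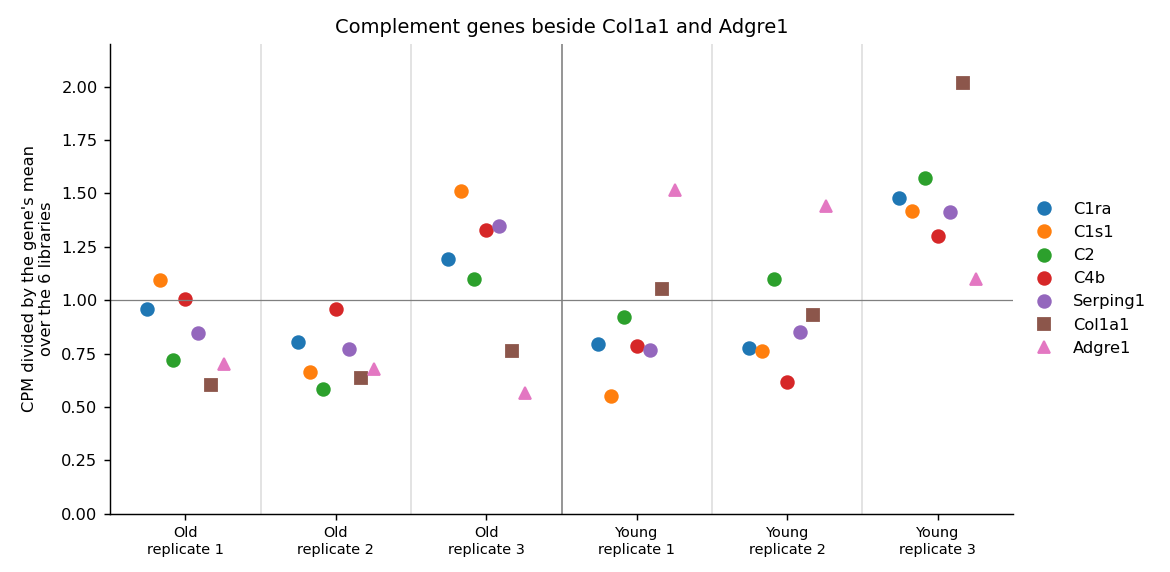
CPM of each gene divided by its mean over the 6 libraries, for 5 complement genes, the stromal gene Col1a1 (squares) and the macrophage gene Adgre1 (triangles). In each age the 5 complement genes and Col1a1 are highest in replicate 3, where Adgre1 is lowest. The sum of all macrophage markers does not follow Adgre1 and is highest in Young replicate 3 (10228 CPM, of which 7164 CPM is Lyz2). Single macrophage markers differ in which Young library is highest.

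C5ar1, the receptor for the anaphylatoxin C5a on neutrophils and macrophages, varied far more between libraries of 1 age than between the ages. It had 12.7, 174 and 10.8 CPM in Old and 14.9, 202 and 18.0 CPM in Young libraries. Replicate 2 of each age was thus far above the other libraries of that age, and the ages overlapped. The log2 fold change was -0.25 (SE 1.37, adjusted p = 0.945), and it was -2.73 without Old replicate 2 and 2.00 without Young replicate 2, so no age difference can be read. C5ar1 was the only 1 of 15567 tested genes at 1 CPM or more in which each replicate 2 library was at least 4-fold above all of the other 4, at 9.67-fold. The same search found 0 genes for replicate 1 and 1 gene for replicate 3. In the opposite direction, 4, 2 and 2 genes were at least 4-fold below all of the other 4 libraries in replicates 1, 2 and 3. The limit of 4-fold was set after the values were seen.

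The neighbours of C5ar1 on chromosome 7 showed no step of that size. C5ar1 lies at chr7:16246743-16259540 (mm10, minus strand, ENSMUSG00000049130). C5ar2, the other C5a receptor, lies beside it and had 0.639, 0.987 and 0.889 CPM in Old and 0.542, 0.877 and 0.594 CPM in Young libraries (adjusted p = 0.684), highest in replicate 2 of each age but by a small margin. Inafm1, a nearby gene on the other side, had 12.1, 11.5 and 10.1 CPM in Old and 12.1, 9.45 and 11.7 CPM in Young libraries. The 8 neutrophil markers summed to 788, 713 and 1357 CPM in Old and 1499.6, 1980.2 and 1072 CPM in Young libraries, so replicate 2 was the lowest Old sum and the highest Young one. The macrophage markers of the replicate 2 libraries, 4792 CPM in Old and 9046 CPM in Young, were the lowest of the Old sums and the middle Young one. Both sums are mostly Lyz2, at 2874 CPM in Old replicate 2 and 5766 CPM in Young replicate 2. What sets the replicate 2 libraries apart in this gene was not tested.

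**Figure D5:**
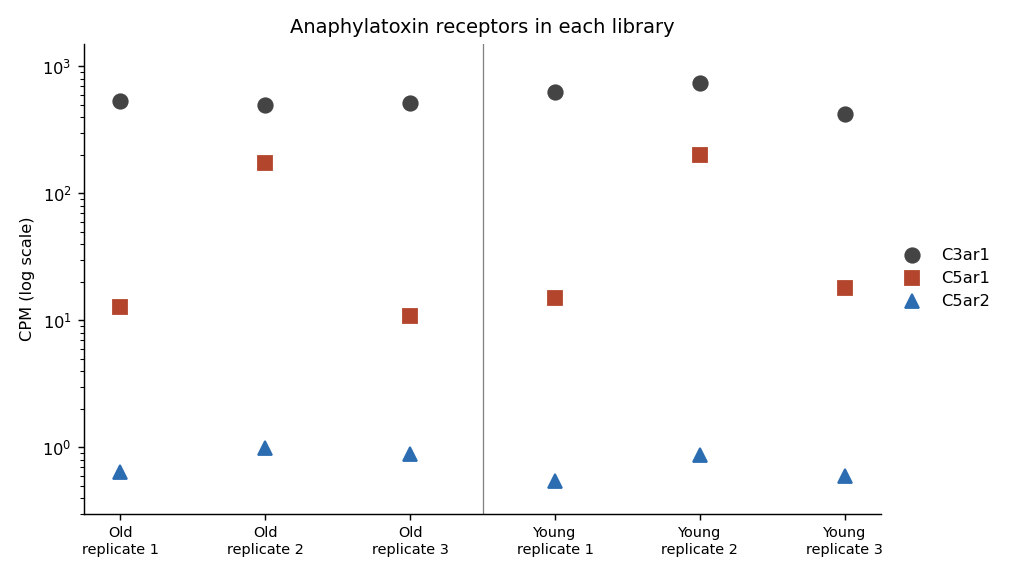
CPM on a log axis of the C3a receptor gene C3ar1 and the C5a receptor genes C5ar1 and C5ar2 in each library. C5ar1 is 174 CPM in Old replicate 2 and 202 CPM in Young replicate 2, against 10.8 to 18.0 CPM elsewhere, and the other receptors show no step of that size.

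Among the 33 genes, 3 regulators of complement on the cell surface were tested and none passed. Cr1l, encoding Crry, the rodent protein that protects cells from C3 and C4 deposition, had the highest TPM of them (22.9 ± 2.06 in Old and 21.2 ± 1.83 in Young libraries, SD, n = 3 each) and had 92.0, 80.7 and 78.3 CPM in Old and 80.5, 81.8 and 67.8 CPM in Young libraries. Its ranges overlapped (log2 fold change 0.13, SE 0.11, adjusted p = 0.560). Cd59a, the inhibitor of the membrane attack complex, had 10.1, 9.09 and 8.97 CPM in Old and 8.19, 9.08 and 9.42 CPM in Young libraries (log2 fold change 0.08, SE 0.13, adjusted p = 0.792). Cd55, which speeds decay of the C3 convertases, stood at 2.97 to 4.86 CPM in Old and 2.43 to 3.56 CPM in Young libraries (adjusted p = 0.562). Cd46, which in mice is largely a testis gene, had 6 counts in Old replicate 3 and 0 elsewhere. Clu, encoding clusterin, a soluble chaperone that binds the terminal complex, had 12.1, 13.0 and 11.9 CPM in Old and 4.20, 6.28 and 9.03 CPM in Young libraries. The ages of Clu did not overlap, but its log2 fold change of 0.92 (SE 0.26, adjusted p = 0.0719) missed the threshold. Clu was called higher with DESeq2 (adjusted p = 0.00941), with limma-voom (adjusted p = 0.0451) and without Young replicate 3 (adjusted p = 0.00851).

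Of the 5 terminal pathway genes among the 33, 4 had few or no counts and C8g was measured at a low level. C7, C9, the protease gene Cfi and the inhibitor gene Vtn had 0 counts in all 6 libraries, where 3 counts, the limit that a count of 0 allows for counting error, correspond to 0.0692 to 0.0872 per library on the CPM scale, by total counts. Hc, encoding C5, had 9 counts in Young replicate 1 and 0 elsewhere, and C6 had 9, 0 and 6 counts in Old and 4, 4 and 0 counts in Young libraries. C8g, the small chain of C8, was the only terminal gene tested, with 0.778 to 1.53 CPM in Old and 1.19 to 1.39 CPM in Young libraries (log2 fold change -0.32, SE 0.35, adjusted p = 0.650). Most of these proteins, though not all, are known mainly as liver products. The 5 hepatocyte markers summed to 0.25 to 0.26 CPM in Old and 0.198 to 0.832 CPM in Young libraries. Among these markers, Ttr and Serpina1a had 0 counts in all libraries, while Apoh had 6 to 21 counts in every library.

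Beyond the 33 genes, a list of 31 other complement-related genes was examined, of which 15 were tested, 4 rose and 2 fell (median log2 fold change 0.08). Without Old replicate 1, Young replicate 1 or Young replicate 2 only 1 gene fell. Ptx3, encoding the long pentraxin that binds C1q, had 835, 786 and 844 CPM in Old and 205, 224 and 277 CPM in Young libraries. All Old libraries lay far above the Young ones (log2 fold change 1.80, SE 0.12, adjusted p = 0.000492). Thbd, encoding thrombomodulin, which also aids inactivation of C3b, was 5.28-fold higher, with 113, 119 and 104 CPM in Old and 18.9, 22.7 and 22.2 CPM in Young libraries (adjusted p = 0.00027). Csmd1, a membrane inhibitor of complement in the nervous system, rose 2.53-fold to 10.3 ± 1.21 CPM in Old, against 4.08 ± 0.430 CPM in Young libraries (SD, n = 3 each, edgeR adjusted p = 0.00325). Fcnb, encoding ficolin B of granulocytes and monocytes, had 7.12, 4.88 and 10.4 CPM in Old and 20.5, 24.7 and 17.9 CPM in Young libraries. Fcnb fell (log2 fold change -1.50, SE 0.28, adjusted p = 0.0161), a call lost without Old replicate 1, Young replicate 1 or Young replicate 2 (adjusted p 0.0513 to 0.0773).

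The chains of the iC3b receptors moved apart. Itgax, the alpha chain of complement receptor 4, had 18.0, 19.7 and 21.6 CPM in Old and 2.57, 4.58 and 4.07 CPM in Young libraries and rose (adjusted p = 0.00133). Itgam, the alpha chain of complement receptor 3 and also a macrophage marker, had 132, 123 and 130.3 CPM in Old and 183, 203 and 209.8 CPM in Young libraries and fell (adjusted p = 0.00401), and it shares 68.7% of its exon length with Gm49368. Itgb2, the beta chain of both receptors, had a log2 fold change of -0.01 (SE 0.08, adjusted p = 0.978). Cr2, the complement receptor of B cells, had 0 counts in all libraries, while 6 of the 7 tested B cell and plasma cell markers rose.

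Of 18 genes linked to transcription of complement genes, all tested, 7 rose and 4 fell (median log2 fold change -0.01). Cebpa, Cebpd and Nr1h3 rose 2.13-fold, 1.68-fold and 1.70-fold (adjusted p = 0.000787, 0.00161 and 0.0108), and the exons of Cebpd overlap those of Spidr in part. Il6, a cytokine that induces complement in hepatocytes, had 5.59, 4.23 and 5.11 CPM in Old and 1.31, 1.39 and 0.624 CPM in Young libraries and rose (adjusted p = 0.00762).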

How the data were processed

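The deposited values are whole-number read counts per Ensembl gene for 6 libraries, 3 Old and 3 Young. Per the labels' protocols, RNA was amplified with a low-input kit, fragmented and sequenced as pairs of 100 bp. The submitters' processing notes name the mm10 build, STAR 2.6.1a, HISAT2 2.1.0 and StringTie 1.3.4d among the tools. The counter, its strand setting and the handling of multi-mapping reads are not stated in those notes or the labels, and the low-input kit does not mark strand.

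Symbols, positions, exon lengths and exon overlaps came from GENCODE M21, which matched 37693 of 39017 identifiers. TPM used exon lengths and TMM-scaled CPM. Promoter windows came from RefSeq (GRCm38.p6), and C1qa had no window there.

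The whole table was fitted with edgeR 4.0.16 in R 4.3.3: filterByExpr, TMM and the robust quasi-likelihood test without a replicate block, with Benjamini-Hochberg adjustment over 15567 genes. The SE is the absolute log2 fold change over the square root of F. Single ratios had exact permutation tests in scipy 1.17.1. Alternatives were DESeq2 1.42.0 size factors, the DESeq2 test, limma-voom (limma 3.58.1), no filter, a filter of 50 counts in 3 libraries, a replicate block, and leaving out each library. The procedure was also run on counts simulated gene by gene from the means and dispersions of these data. Those counts held no deviating library, so the run does not show how the procedure handles one. Every pair of libraries of 1 age differed beyond counting noise. The chi-square per degree of freedom was 112 and 118 for the pairs with Young replicate 3, and 23.2 to 31.5 for the others. Per-library values are given for complement genes past the threshold or at 10 CPM or more in either age, and for some below it, and other genes are named where they passed, at most 6 of a list. Some results of those lists are not reported here. Genes and lists were chosen with earlier results of these data known.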

Additional observations from a re-analysis of the deposited data

How the results depend on the processing

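The 10 complement calls were all kept with DESeq2 size factors, the DESeq2 test, limma-voom and the stricter filter, and 9 were kept without a filter. The 10 include Vsig4, which passed the main filter only through its Old libraries and is given as a description. Vsig4 was called higher in every setting, so each count of higher complement genes below includes it and is not evidence about it. With the replicate block, 7 of the 10 were kept (2 higher, 5 lower), and over all genes 711 were higher and 575 lower. Same-numbered libraries correlated in their deviations from the age means at 0.0883, 0.0340 and 0.0900, each library best with its own number but none over 0.1. Values this small do not settle whether the numbers pair the libraries. In both ages C5ar1 was highest in replicate 2, and 10 of 12 stromal markers were highest in replicate 3. Whether same-numbered libraries share an origin was not tested, and the main fit used no replicate block. On leaving out 1 library the genes called over all numbered 418 to 1459 higher and 294 to 1168 lower, complement genes 2 to 4 higher and 3 to 7 lower, and other pathway genes 4 higher throughout and 1 to 3 lower. The upper ends over all genes came from leaving out Young replicate 3. Every other omission gave fewer calls than the 909 higher and 731 lower of the main fit. The DESeq2 test called 1331 genes higher and 1137 lower over all, against 909 and 731. The cause of these shifts was not tested.

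Direction changed in no called gene. C1ra had a log2 fold change of 0.0039 with limma-voom and 0.0017 with the replicate block. On leaving out 1 library, log2 fold changes crossed 0 for C1ra (-0.21 to 0.33), C1s1 (-0.049 to 0.74), C5ar1 (-2.73 to 2.00), Fcna (-0.056 to 0.54), Serping1 (-0.32 to 0.29), C1s2 (-0.32 to 0.33), Cd59b (-0.18 to 0.42), Colec12 (-0.036 to 0.26) and Itgb2 (-0.073 to 0.046). At this depth a gene with 0 counts may still be present below about 0.09 CPM.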
